A study of Mus musculus with 4 samples.

Results

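The genes of the dentate gyrus granule lineage were taken as 8 named genes: Eomes, Neurod1, Igfbpl1, Prox1, Dsp, C1ql2, Lct and Tdo2. Every probe set that the platform annotation assigned to exactly 1 of these symbols was included, which gave 17 of 45037 probe sets, and 8 of the 18193 genes named in this way. Total RNA came from hippocampi of mice at postnatal day 2 and was measured on 4 Affymetrix arrays. Tissue labelled wildtype (control, 2 arrays) was compared with tissue labelled ZBTB20 knockout (2 arrays), the animals being littermates, to find genes that depend on this zinc finger transcription factor in the developing hippocampus. The knockout allele, its cell type specificity, the strain, and whether animals were pooled are not stated in the labels used here, and the spread between arrays may be partly technical.

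The dentate gyrus is the entry station of the hippocampus, and its principal neurons, the granule cells, are largely born after the pyramidal neurons of the neighbouring fields. Radial glial progenitors give rise to intermediate progenitors that express Eomes, which encodes the T-box factor TBR2, and these divide into neuroblasts that switch on Neurod1, a basic helix-loop-helix factor, and then Prox1, the homeodomain factor that specifies and maintains granule cell identity. Maturing granule cells of the mouse express Dsp (the desmosomal linker desmoplakin), C1ql2 (a secreted C1q-like protein of mossy fibre synapses), Lct (lactase) and Tdo2 (tryptophan 2,3-dioxygenase). Igfbpl1, an insulin-like growth factor binding protein-like gene, marks newborn neurons. Some of these later markers are also used outside the brain, Dsp in epithelia, Lct in the intestine and Tdo2 in the liver.

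Each array stood on 1 of 2 scales. The trimmed mean came to 497 on both replicate 1 arrays and between 156 and 158 on the replicate 2 arrays. Spearman correlations across probe sets were 0.926 and 0.986 within a replicate number and 0.818 to 0.832 across numbers. Values are therefore compared within each replicate number, as knockout minus control on the scale log2(signal + 32.6), where pair 1 means replicate 1 and pair 2 means replicate 2. The added constant, the 20th percentile of all signals, understates differences of dim probe sets. Such a difference rests on a single array per group, without error or test. Of the 9 Zbtb20 probe sets 0 fell below control in both pairs, so this signal did not check the genotype labels, which are followed as given. Liver transcripts and Xist were bright on the replicate 1 arrays and dim on the replicate 2 arrays, as given beside Tdo2 below. Detection calls were not analysed here, so a probe set under the 20th percentile of its array may hold background only.

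The sequences before the annotated starts of 4 members are shown, since these members carried the patterns described here. Neurod1 and Eomes were both higher in the knockout in pair 1 and lower in pair 2. Prox1 was higher in the knockout in both pairs, and Tdo2 was lower in the knockout in pair 1 with all its probe sets. Each is the 250 bases before a RefSeq gene start (GRCm38.p6), 5′ to 3′ on the strand of the gene. Capitals mark CANNTG, the E-box bound by basic helix-loop-helix factors such as NEUROD1, and TATAAA on either strand. For Prox1, which has 2 such windows, the upstream one is shown.
Neurod1, chr2:79456637-79456886, minus strand: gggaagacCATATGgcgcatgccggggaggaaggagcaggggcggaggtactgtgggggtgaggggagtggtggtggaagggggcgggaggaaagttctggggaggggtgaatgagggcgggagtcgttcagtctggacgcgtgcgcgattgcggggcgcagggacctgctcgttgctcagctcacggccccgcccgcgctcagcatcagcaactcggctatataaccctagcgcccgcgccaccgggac
Eomes, chr9:118477939-118478188, plus strand: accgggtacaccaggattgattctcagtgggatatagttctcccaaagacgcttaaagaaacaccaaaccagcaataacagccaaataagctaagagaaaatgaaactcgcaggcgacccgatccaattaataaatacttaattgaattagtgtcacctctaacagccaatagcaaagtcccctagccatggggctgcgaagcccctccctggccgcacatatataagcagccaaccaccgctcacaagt
Prox1, chr1:190170828-190171077, minus strand: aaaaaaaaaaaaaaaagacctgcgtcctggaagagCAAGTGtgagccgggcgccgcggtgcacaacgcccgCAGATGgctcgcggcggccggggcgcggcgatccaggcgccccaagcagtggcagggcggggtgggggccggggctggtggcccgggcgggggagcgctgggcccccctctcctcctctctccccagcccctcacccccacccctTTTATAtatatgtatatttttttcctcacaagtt
Tdo2, chr3:81975729-81975978, minus strand: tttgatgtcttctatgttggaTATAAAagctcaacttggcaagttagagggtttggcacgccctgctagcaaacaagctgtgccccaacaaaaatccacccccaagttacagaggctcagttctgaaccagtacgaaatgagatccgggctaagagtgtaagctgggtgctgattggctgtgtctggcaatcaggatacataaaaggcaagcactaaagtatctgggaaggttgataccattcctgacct
Of the 8 members 7 had an entry, with 8 windows in all. CANNTG occurred in 66.2% of 32841 windows of this length over all genes, CAGATG (on either strand, a form of CANNTG) in 14.4%, and TATAAA (either strand) in 12.4%. The Prox1 window held 2 CANNTG, 1 of them CAGATG, and its TATAAA match began 34 bases before the start. Neurod1 held 1 CANNTG and no TATAAA, Eomes held neither, and the single TATAAA of Tdo2 lay 229 bases before the start. Only the exact letters were sought, so similar runs, such as tatataa near the end of the Neurod1 and Eomes windows, were not counted. Among the windows not shown, Lct held 2 CANNTG, C1ql2 1, and the other Prox1 window and Dsp 0. A match is a run of letters and not a measured binding site, and no array value bears on binding.

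The 4 genes whose brightest probe set stayed above the array median on every array were Neurod1, Igfbpl1, Eomes and Prox1, while Dsp and C1ql2 stayed below it on all 4. Of the 17 probe sets, 7 lay above the median on all 4 arrays. Between knockout and control, 0 of the 17 passed limma's test at an adjusted p of 0.05, and 0 of all 45037 did (0%). Of the members 0 had an unadjusted p under 0.05, against 25 of all probe sets. With the replicate number as a block, which takes the 2 scales out of the error, limma again called 0 members and 0 of all probe sets (0%). There 1 member, Tdo2 1419093_at, and 366 of all probe sets had an unadjusted p under 0.05. Fold differences were counted here on the log2 scale with its added constant. Counted so, the groups differed by more than 2-fold within pair 1 at 4 member probe sets and within pair 2 at 0. Of these 4, 1 was higher and 3 were lower in the knockout. By signal alone, Dsp 1435494_s_at (ratio 2.48) and Tdo2 1455770_at (ratio 0.443) were also over 2-fold apart in pair 1. Over all probe sets, with the constant added, 3.63% were over 2-fold higher and 6.48% lower in pair 1. In pair 2, 0.153% were higher and 0.178% lower.

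**Figure D1:**
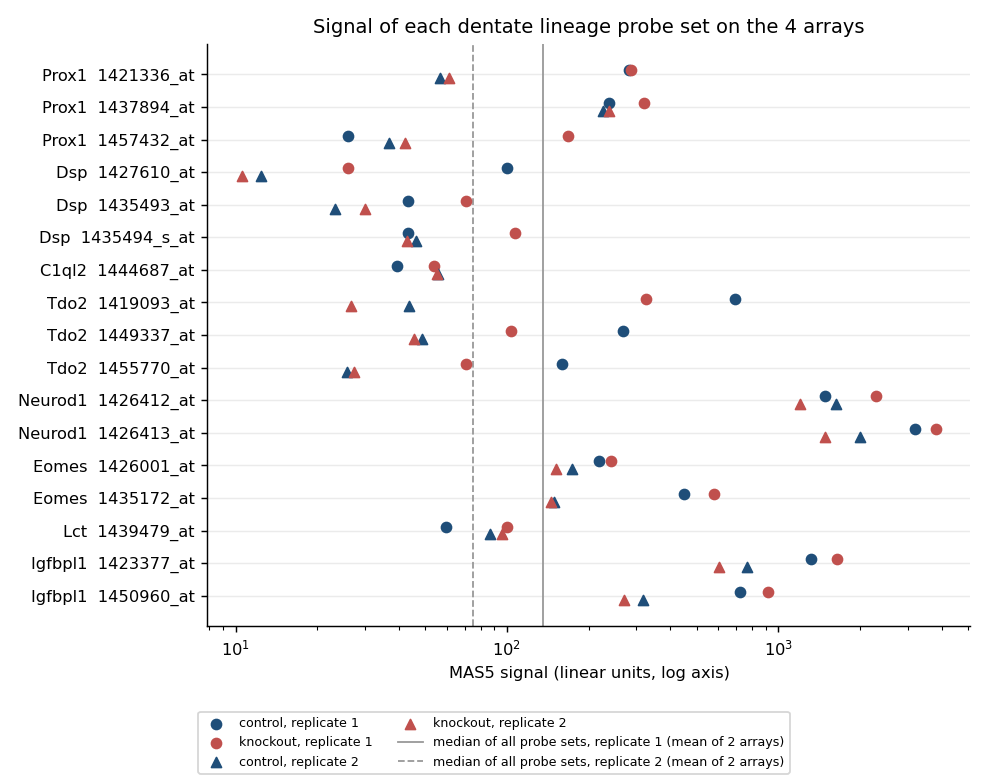
MAS5 signal (linear units on a log axis) of the 17 probe sets on the 4 arrays. Circles are replicate 1 and triangles replicate 2, blue is control and red knockout, and the vertical lines are the median signals of all probe sets at each replicate number. Neurod1 and Igfbpl1 sit to the right of both medians on every array, with red to the right of blue in replicate 1 and to the left in replicate 2.

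Eomes, the intermediate progenitor gene, had signals close together in the 2 groups. Probe set 1435172_at read 450 in control and 578 in knockout tissue of replicate 1, and 149 and 145 in replicate 2. The replicate 1 values were apart by a ratio of 1.28 and the replicate 2 values by 0.974, so the groups overlapped. On the log2 scale the differences were 0.34 and -0.03, and limma gave 0.15 ± 1.21 (SE, n = 2 per group, adjusted p = 1). With the replicate number as a block it gave 0.15 ± 0.20 (adjusted p = 0.999999). Without the block, the SE is the value fitted for probe sets of like signal and not the spread of this probe set. The other probe set, 1426001_at, read 218 and 243 in replicate 1 and 173 and 151 in replicate 2, with differences of 0.14 and -0.16. Its rank among all probe sets, counted from the brightest, went from 18746 to 17460 in pair 1 and from 11178 to 12770 in pair 2. For 1435172_at the ranks were 12841 and 10952, then 12718 and 13210. With both probe sets Eomes thus ranked higher in the knockout of pair 1, and lower in that of pair 2.

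Eomes is also expressed by Cajal-Retzius cells, the early reelin-producing neurons of the marginal zone. In a list of 8 genes of these cells 3 were higher in the knockout in pair 1 and 4 in pair 2, with medians of -0.18 and 0.06. The summed signal came to 14613 (control) and 11931 (knockout) in replicate 1, and to 2783 and 2807 in replicate 2. The largest part of each sum was Reln, at 11709 and 8712, then 1360 and 1789, so the sums mainly follow this gene. Calb2, the next largest, had the opposite signs, at 1329 and 1484, then 629 and 256. The defining gene Trp73, which encodes p73, read 225 and 216, then 88.6 and 99.8. None of these genes was listed at 0. Their part in the Eomes values was not tested.

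Neurod1 was the brightest member and had opposite signs in the pairs. Probe set 1426413_at read 3180 in control and 3807 in knockout tissue of replicate 1, then 2005 and 1484 in replicate 2. The knockout was higher in replicate 1 and lower in replicate 2, and the groups overlapped. Differences were 0.26 in pair 1 and -0.43 in pair 2, and group means on the log2 scale were 11.32 ± 0.46 (SD, n = 2) for control and 11.24 ± 0.95 for knockout. The SD of either group exceeded the difference of the means, but each SD spans the 2 scales of the replicate numbers. limma's estimate was -0.08 ± 1.89 (SE, adjusted p = 1), and -0.08 ± 0.20 with the replicate number as a block (adjusted p = 0.999999). Probe set 1426412_at, designed from the same source sequence, read 1482 and 2295 in replicate 1 and 1635 and 1207 in replicate 2, at 0.62 and -0.43. On both replicate 2 arrays Neurod1 stood among the brightest probe sets, 1426413_at at rank 663 in control and 907 in knockout, against ranks 2106 and 1725 in replicate 1. By size, its pair 2 differences lay at the 95.8 percentile of all probe sets, while the pair 1 differences lay at 45.1 and 76.2.

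Igfbpl1, the other gene of newborn neurons, followed the signs of Neurod1. Probe set 1423377_at read 1323 and 1640 in replicate 1 and 767 and 605 in replicate 2, for control and knockout in turn. Again the knockout was the higher array of replicate 1 and the lower of replicate 2. The differences were 0.30 and -0.33, and the second, 1450960_at, gave 0.33 and -0.21 from signals of 724 and 920, then 318 and 270. In rank 1423377_at moved from 5495 to 4490 in pair 1 and from 2401 to 3040 in pair 2. limma's estimate for it was -0.01 ± 1.73 (SE, n = 2 per group, adjusted p = 1), and -0.01 ± 0.18 with the replicate number as a block (adjusted p = 0.999999). Centred on their means over the 4 arrays, the profiles of Neurod1 and Igfbpl1 were the closest of all 28 pairs of members, at a Euclidean distance of 0.11 on the log2 scale. Both genes' probe sets come from 1 source sequence per gene, so they do not count as separate evidence.

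All 6 probe sets of Eomes, Neurod1 and Igfbpl1 had the higher signal in the knockout array of pair 1 and the lower signal in that of pair 2. Over all 17 member probe sets 8 had this order of signs, against 20.9% of all probe sets, and the other 2 were from Dsp and C1ql2. Of the remaining 9, 5 were higher in both pairs (24.2% of all probe sets), 3 lower in both (22.7%) and 1 lower in pair 1 and higher in pair 2 (32.1%). These shares come with no test, since a pair holds 1 array per group. Of the 34 member differences 1, C1ql2 in pair 2, changed sign under the other scalings and pseudocounts. Genes of other cell types moved in the same and in the opposite order. In a list of 8 interneuron genes 7 shared this order of signs, and their summed signal went from 10316 to 13542 and from 4094 to 2319. Of 10 genes of subiculum and cortex 9 had the reverse order, with summed signals of 42613 and 15668, then 3002 and 10760. In 11 measured genes of the CA fields 4 had the order of Neurod1, with summed signals of 10801 and 14740, then 5307 and 4201. Of the 11, 8 were higher in pair 1 and 6 in pair 2, with medians of 0.24 and 0.01. The fall of the sum in pair 2 came mainly from Pcp4 (1070 and 265) and Nectin3 (1087 and 545). The part of these cells in the values of the granule lineage was not tested. In bulk tissue, fewer cells of a type and less RNA per cell cannot be told apart.

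**Figure D2:**
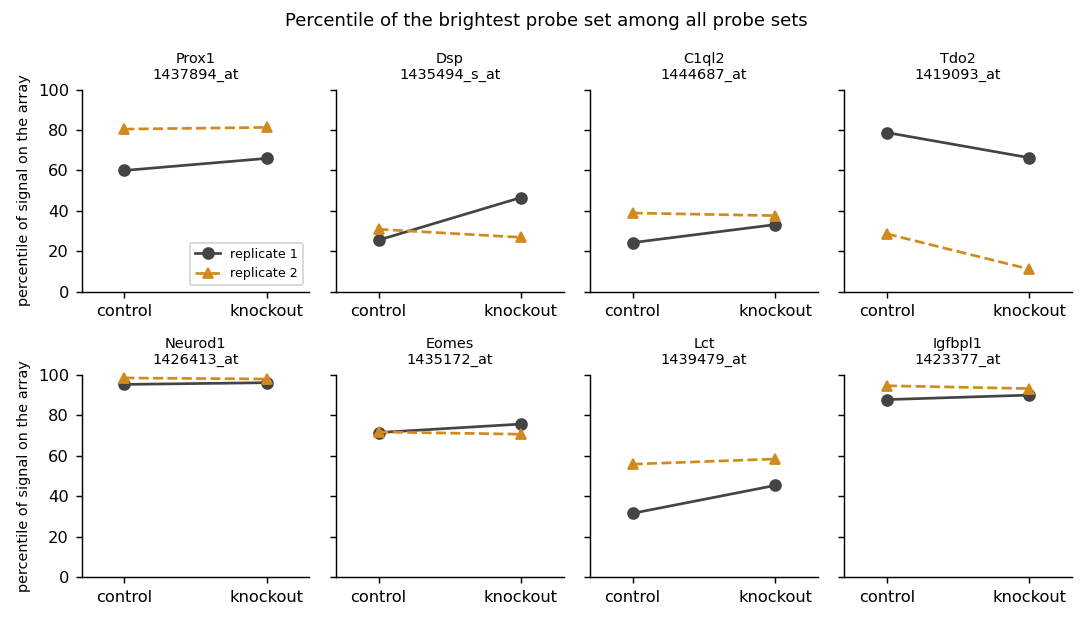
Percentile of the signal of each gene's brightest probe set among all 45037 probe sets of the same array, in control and knockout tissue, for replicate 1 (circles, solid) and replicate 2 (triangles, dashed). Each point is 1 array; Neurod1 and Igfbpl1 stay above 87 on all 4 arrays, and Tdo2 is higher on both replicate 1 arrays than on either replicate 2 array.

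Prox1, the determinant of granule cell identity, was higher in the knockout in both pairs with all 3 of its probe sets. The brightest, 1437894_at, read 237 and 319 in replicate 1 and 226 and 239 in replicate 2. Both knockout signals lay just above both control signals, with a gap between the groups of under 2 signal units. The differences were 0.38 and 0.07, and means were 8.05 ± 0.04 (SD, n = 2) in control and 8.27 ± 0.27 in knockout. limma gave 0.23 ± 1.16 (SE, adjusted p = 1), and 0.23 ± 0.20 with the replicate number as a block (adjusted p = 0.999999). On percentile ranks the groups overlapped, at 60.0 and 80.4 for control and 66.0 and 81.3 for knockout. Probe set 1421336_at read 283 and 287 in replicate 1 and 56.5 and 61.3 in replicate 2, so it hardly differed within a pair (0.02 and 0.08).

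The widest member difference came from the dimmest Prox1 probe set, 1457432_at, with 26.0 in control and 168 in knockout tissue of replicate 1, a ratio of 6.47, and 36.8 and 42.2 in replicate 2, a ratio of 1.15. On the control arrays it lay at the 19.3 and 21.8 percentile, and on the knockout arrays at 54.8 and 26.4. The pair 1 difference of 1.78 therefore rested on 1 array, and the pair 2 difference was 0.11. Its difference in pair 1 exceeded those of the 2 brighter Prox1 probe sets by more than 1 log2 unit. Averaging the 3 probe sets raised the Prox1 difference in pair 1 from 0.38 to 0.73.

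Among the 17 probe sets, 3 had both knockout signals above both control signals and 0 had both below. Of all probe sets, 4.94% were separated upward and 4.56% downward. The 3 were Prox1 1437894_at, Prox1 1457432_at and Lct 1439479_at. Since the replicate numbers differ in scale, the count was repeated on percentile ranks, where 1 probe set, Prox1 1457432_at, remained, against 6.46% of all probe sets. Choroid plexus genes, markers of the tissue that makes cerebrospinal fluid, mostly had the same signs as Prox1 and Lct. This list was set beside them with the results known, and not because these cells were known to express either gene. Of 8 measured 6 were higher in both pairs, with medians of 0.65 and 0.41, and 2 lay above the median on all 4 arrays. The summed signal of this list was 63876 in control and 76183 in knockout in replicate 1, then 4040 and 9860 in replicate 2. Most of each sum came from Ttr, also a liver transcript, at 62551 and 74106, then 3505 and 9232. None of the 8 genes was listed at 0, and their part in the Prox1 and Lct values was not tested.

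**Figure D3:**
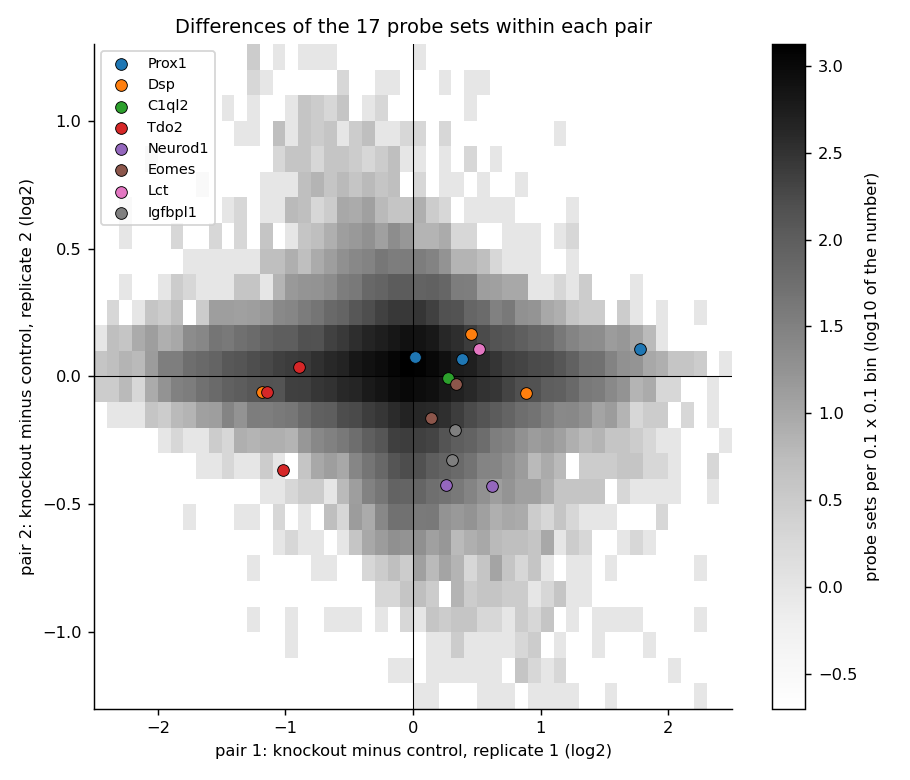
Difference between knockout and control in pair 1 (horizontal) and pair 2 (vertical), both in log2 units, for the 17 member probe sets (coloured points) over the density of all 45037 probe sets (grey, on a log10 scale; the few beyond the axes are not drawn). Members spread from -1.18 to 1.78 along pair 1 and from -0.43 to 0.16 along pair 2.

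Lct, in this tissue a granule cell marker, had 1 probe set and differed in 1 direction. It read 59.9 and 99.8 in replicate 1 and 87.0 and 96.1 in replicate 2. The knockout was higher each time, by 0.52 and 0.11. limma's estimate was 0.31 ± 0.72 (SE, n = 2 per group, adjusted p = 1), and 0.31 ± 0.32 with the replicate number as a block (adjusted p = 0.999999). On the replicate 1 arrays Lct lay below the array median, at the 31.5 and 45.3 percentile, and on those of replicate 2 above it, at 55.8 and 58.4.

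C1ql2, the mossy fibre synapse gene, was dim throughout. Its single probe set 1444687_at read 39.2 and 54.0 in replicate 1 and 55.8 and 55.5 in replicate 2. All 4 values lay below the array medians, between the 24.2 and 38.9 percentile. The differences were 0.27 and -0.0051. The second of these was among the smallest of all probe sets, at the 3.23 percentile of sizes, and it turned to 0.0068 when all arrays were scaled to 1 trimmed mean.

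Dsp, which encodes desmoplakin, gave conflicting values between its 3 probe sets. Of these, 1435493_at and 1435494_s_at come from 1 source sequence. Probe set 1435494_s_at read 43.1 and 107 in replicate 1 and 46.1 and 42.7 in replicate 2, with differences of 0.88 and -0.06. Probe set 1435493_at read 43.1 and 70.9, then 23.2 and 29.96, and was higher in the knockout in both pairs (0.45 and 0.16). The third, 1427610_at, went the other way in pair 1, with 99.9 in control and 25.9 in knockout (-1.18), and read 12.4 and 10.6 in replicate 2 (-0.06). None of the 12 Dsp signals reached the median of its array, and both replicate 2 signals of 1427610_at lay at or below the 1.85 percentile. With the mean of its probe sets Dsp was at 0.05 in pair 1 and 0.01 in pair 2.

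Since epithelia also make desmoplakin, 8 genes of desmosomes and epithelium were read beside it. In pair 1, 4 were higher and 4 lower, and in pair 2, 3 were higher and 5 lower, with medians of -0.0033 and -0.05. Their summed signal was 1250 in control and 1131 in knockout in replicate 1, and 616 and 604 in replicate 2. Pkp2, the desmosomal plakophilin 2, was at 0.89 and -0.51, and 0 of the 8 lay above the median on all 4 arrays. None was listed at 0, and their part in the Dsp values was not tested.

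Tdo2, the tryptophan-degrading enzyme, was lower in the knockout in pair 1 with all 3 probe sets. Of these, 1419093_at and 1449337_at come from 1 source sequence, so they do not count as separate evidence. The brightest, 1419093_at, read 692 and 325 in replicate 1 and 43.7 and 26.6 in replicate 2. The knockout array was the lower of each pair, by -1.02 and -0.37. Both replicate 1 signals lay far above both replicate 2 signals, so the groups overlapped, with means of 7.88 ± 2.30 (SD, n = 2) and 7.18 ± 1.83. limma gave -0.69 ± 0.93 (SE, adjusted p = 1), and -0.69 ± 0.27 with the replicate number as a block (unadjusted p = 0.0387, adjusted p = 0.999999). In rank this probe set fell from 9580 to 15189 in pair 1 and from 32164 to 40037 in pair 2.

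The other Tdo2 probe sets carried less in pair 2. Probe set 1449337_at read 269 and 104 in replicate 1 and 48.8 and 45.4 in replicate 2, at -1.14 and -0.06, and 1455770_at read 160 and 70.7, then 25.9 and 27.4, at -0.90 and 0.04. In pair 2 the 3 probe sets thus ranged from -0.37 to 0.04. Of the 6 replicate 2 signals, 3 lay below the 20th percentile of their array, namely the knockout signal of 1419093_at and both of 1455770_at.

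Tdo2 is a liver enzyme, and liver transcripts were lower in the knockout in pair 1 as Tdo2 was. Of 12 liver genes (leaving out Ttr, which the choroid plexus also makes) all 12 were lower in the knockout in pair 1, 11 of them by over 2-fold, with a median of -1.87. In pair 2 Tdo2 1419093_at was at -0.37, and its other probe sets were at -0.06 and 0.04. There the median of the liver genes was 0.03, 8 of the 12 were higher, and none was apart by more than 0.17. Tdo2 and most of these genes were dim in replicate 2, where the added constant narrows differences. These sizes therefore do not set Tdo2 apart from the liver genes. The summed signal came to 59013 (control) and 20159 (knockout) in replicate 1, against 493 and 511 in replicate 2. Albumin (Alb) alone read 39309 and 15195, then 42.2 and 45.2. None of the 12 was listed at 0, and their median percentile was 84.6 and 64.4 in replicate 1 and 15.4 and 16.3 in replicate 2. Their part in the Tdo2 values was not tested. The arrays also differed in transcripts tied to sex. Xist read 2994 and 4093 in replicate 1 and 36.3 and 39.9 in replicate 2. The Y-linked Eif2s3y read 305 and 10.7, then 714 and 830, and Kdm5d 130 and 2.3, then 105 and 120. Uty, also Y-linked but dim, went the other way in pair 1, at 37.1 and 75.9, then 69.8 and 91.2. The control array of replicate 1 thus held both Xist and Eif2s3y, and within pair 1 such transcripts differed along with the genotype label.

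**Figure D4:**
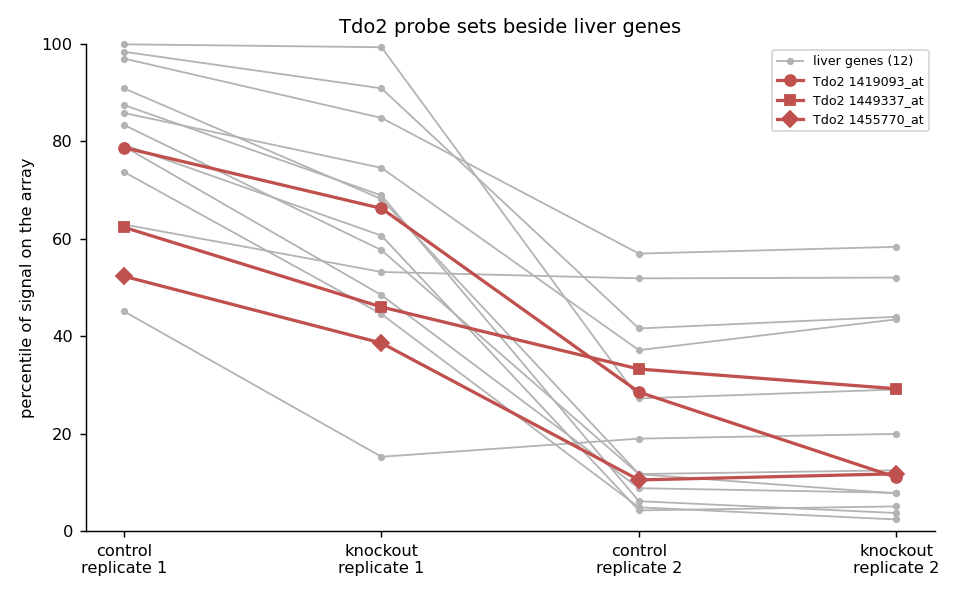
Percentile of the signal on each of the 4 arrays for the 3 Tdo2 probe sets (red) and 12 liver genes (grey, 1 probe set each); lines join the arrays only to show which points belong together. On the replicate 1 arrays the Tdo2 probe sets fall from between 52.3 and 78.7 in control to between 38.6 and 66.3 in knockout, and on those of replicate 2 they lie at or below 33.3.

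The genes whose profile over the 4 arrays was closest to a member, among the 12581 genes whose mean exceeded the 40th percentile, were found by Euclidean distance of the centred log2 values. Over 4 arrays such likeness is common. Within 0.25 of Prox1 there were 205 genes, of Neurod1 197, of Igfbpl1 334 and of Eomes 856, but 3 of Tdo2. The nearest to Tdo2 were Acta2, the smooth muscle actin gene, at 0.13, Serpinc1, which encodes antithrombin, at 0.22, and Vtn, which encodes vitronectin, at 0.24. They differed by -1.13, -1.13 and -0.80 within pair 1, and within pair 2 the values were -0.23, -0.15 and -0.12. Nearest to Neurod1 were Fgd5, Ttyh1 and Vamp2, the vesicle protein synaptobrevin 2, at distances from 0.04 to 0.06. Prox1 lay nearest to Cep95, Fancg and Tnfrsf12a, Igfbpl1 to Ooep, Ccpg1os and Cramp1l, and Eomes to Cep83os, Mtus2 and Ogfod2. For Lct they were Myadml2, Sp6 and Adat1, for C1ql2 Birc6, Acrbp and Nt5dc1, and for Dsp Ippk, Kcnh1 and Ccnk.

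Other genes of the lineage were read from 4 lists, and limma called 0 members of any of them, with or without the replicate block. Over all 18193 genes, 45.8% were higher in the knockout in pair 1 and 51.6% in pair 2, with medians of -0.04 and 0.01. For the 8 members, each by its brightest probe set, 7 were higher in pair 1 and 2 in pair 2, with medians of 0.32 and -0.05. Progenitor genes had the reverse signs. Of 11 measured, 1 was higher and 10 lower in pair 1 (median -0.42; 3 were higher with the mean of all probe sets of a gene), and 9 were higher and 2 lower in pair 2 (median 0.26). Pax6, a regulator of radial glia, read 712 and 308, then 130 and 193, at -1.13 and 0.47. Tfap2c, an AP-2 factor of pallial progenitors, was at -0.22 and 1.03, from 293 and 247, then 179 and 398. Neurog2, the proneural factor that acts before Neurod1, was at -0.56 and 0.31. The sign in the 2 pairs was thus opposite between Neurog2 and both Neurod1 probe sets; the difference between the genes was not tested.

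Further markers of granule cells had mixed signs. Of 9 measured, 4 were higher in pair 1 (median -0.35) and 6 in pair 2 (median 0.06). By gene, 2 had the order of Neurod1 (Dock10 at 0.10 and -0.40, Plk5 at 0.95 and -0.06), 2 were higher in both pairs (Bcl11b at 0.30 and 0.19, Trpc6 at 0.82 and 0.02), 1 was lower in both (Pdia5 at -0.35 and -0.07) and 4 had the reverse order of Neurod1. The first 5 are named here after their values were seen. Among the 4 were the 3 genes with the widest differences of those above the median on all arrays. Lrrtm4, a synaptic adhesion molecule of granule cells, was at -0.95 and 0.88, with signals of 555 and 272, then 90.1 and 194. Stxbp6, which encodes amisyn, was at -0.49 and 0.72, and Calb1, the calcium buffer calbindin of mature granule cells, at -0.64 and 0.26. Among 11 genes of immature neurons 6 were higher in pair 1 (median 0.07) and 8 in pair 2 (median 0.11). Calb2, which encodes calretinin and is transient in young granule cells but also present in Cajal-Retzius cells and interneurons, was at 0.16 and -1.20, Igfbp5 at -0.46 and 0.62, and Sox11, a factor of young neurons, at 0.49 and 0.25. Of 12 genes of migration and of the cortical hem, the signalling centre beside the dentate primordium, 6 were higher in pair 1 (median 0.0089) and 8 in pair 2 (median 0.09). Cxcl12, the chemokine that guides granule cell precursors, was at 0.39 and -0.44, Reln, which encodes reelin, at -0.43 and 0.39, and Dab1, its intracellular adaptor, at -0.07 and 0.47.

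**Figure D5:**
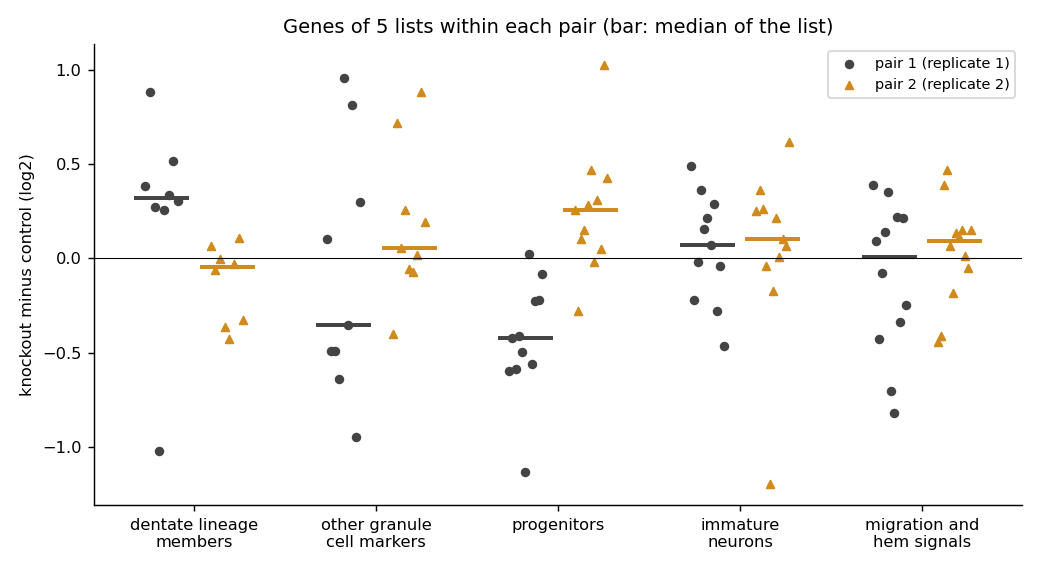
Knockout minus control in log2 units for every measured gene of 5 lists, in pair 1 (circles) and pair 2 (triangles), with the list median as a bar. The members' median is above 0 in pair 1 and just below 0 in pair 2, and that of the progenitors is -0.42 in pair 1 and 0.26 in pair 2.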

How the data were processed

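Hippocampal RNA of 4 samples was measured on Affymetrix arrays. The deposited values are linear MAS5 signal intensities, per the submitters' processing notes; the version, scaling target and background setting are not given in the sources used here. The authors' scaling was kept, and signals were transformed as log2(signal + 32.6). Ranks count from 1 for the brightest of 45037 probe sets. Names come from the platform annotation: 34945 probe sets had 1 symbol, 932 several and 9160 none. Where a gene has several probe sets, the one with the highest mean stands for it unless stated otherwise.

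The test was limma 3.58.1 (R 4.3.3), lmFit and trended eBayes on every probe set without a filter, knockout minus control, Benjamini-Hochberg over all 45037. A filter at the 40th percentile would keep 11 of the 17 members. The residual degrees of freedom were 2, and 1 with the block. No label ties the replicate numbers to litters or dates. The block was run because the scale of the values coincides with them. The number of arrays limits the precision. Members and lists were chosen with earlier results of these data known. Named were all member probe sets, and in each of the 4 lineage lists 3 genes plus any over 2-fold apart with the constant added. The 3 were those with the widest differences among genes above the median on all arrays. Alternatives covered scaling, pseudocount, filter, variance model, block, left-out arrays and the averaging of probe sets.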

Additional observations from a re-analysis of the deposited data

How the results depend on the processing

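limma called 0 member probe sets and 0 of all probe sets under every alternative run: quantile normalization, 1 common trimmed mean, centring on the 75th percentile, a pseudocount at the 40th percentile, a floor of 1 without pseudocount, a filter at the 40th percentile, eBayes without trend or robust, the replicate block, and leaving out each array (0 to 0). The replicate block moved no count of calls. Across probe sets, the arrays of 1 replicate number deviated from their groups together (correlation 0.842), and with 2 pairs this does not show that the numbers pair animals. Of the 16 differences of the 8 genes within a pair, 1 changed sign with 1 trimmed mean (C1ql2 in pair 2), 1 with the mean of all probe sets (Dsp in pair 2, from -0.06 to 0.01) and 0 with the other 4 settings. With the mean of all probe sets, 3 in place of 1 progenitor gene were higher in pair 1. On percentile ranks, chosen after seeing the data, 1 in place of 3 member probe sets had groups that did not overlap. The 2 arrays per group and the dim signals of Dsp, C1ql2 and, in replicate 2, Tdo2 limit what can be read from these genes.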

Other observations

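Between the replicate numbers the members' signals differed by unlike factors, while the trimmed mean of the array was 3.16 times as high in replicate 1 as in replicate 2 for control and 3.19 times for knockout. For Tdo2 1419093_at the factors were 15.8 and 12.2. Prox1 1421336_at was at 5.01 and 4.69, and Prox1 1437894_at at 1.05 and 1.34, so that probe sets of the same gene differed in this factor. Lct stood at 0.688 and 1.04, and C1ql2 at 0.703 and 0.973. Neurod1 1426413_at stood at 1.59 and 2.57, and Igfbpl1 1423377_at at 1.72 and 2.71. No test applies to these factors, which set arrays of different scale against each other.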
